A study of Oryctolagus cuniculus with 24 samples.

Results

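Complement components and regulators were followed through 3 culture conditions of rabbit keratocytes, the cells that live in the stroma of the cornea. The members are 8 genes, chosen by name, namely C1R, C1S, C3, CFB, CFD, C7, CFI and CD55, and were looked up in the table of gene counts. That table holds 23428 genes and lists 7 of the 8 under their names, while CFD was not analysed here. RNA was sequenced from primary rabbit keratocytes at the first passage, grown for 6 days on glass coated with collagen, in 24 libraries. The control group was kept in serum-free medium throughout and is the keratocyte condition (8 libraries). The myofibroblast condition stayed in that medium and received TGF-β1, at a concentration of 5 ng/mL, from day 1 on (8 libraries). The fibroblast condition was moved out of serum-free medium into DMEM with 10% fetal bovine serum (FBS) on day 3 (8 libraries). Base medium and length of exposure therefore changed along with serum in that group. The labels do not tie the libraries of a condition to separate animals or cultures, so a p-value here covers only the spread among these samples, and that spread may be technical.

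Complement is a cascade of plasma and tissue proteins that tags and perforates targets. In the classical pathway the proteases C1r and C1s cut C4 and C2, and in the alternative pathway factor B joins cleaved C3 to form an enzyme that cuts more C3. Both routes can lead to the membrane attack complex, which contains C7, while factor I and CD55 limit the cascade by cutting or dismantling the active C3 fragments and the enzymes built on them. Complement proteins are present in the normal cornea, and stromal fibroblasts of many tissues make some of them.

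A serum-free library held 17151397 to 21540864 counts in all, a TGF-β1 library 15410285 to 20911192 and an FBS library 15659561 to 22528261. Libraries are numbered 5 to 12 in each condition, and numbers 5 to 8 (set 1, replicates 1 to 4) stood apart from numbers 9 to 12 (set 2, replicates 5 to 8). Gene length ran with the sets in serum-free and FBS libraries, while those of TGF-β1 overlapped. Over 13308 genes, length and the departure of a library from its condition mean had a Spearman correlation between -0.0729 and 0.433 for libraries of set 1, and between -0.528 and 0.0646 for those of set 2. What separates the sets is not stated in the labels, so values within each set are given beside the pooled ones. All 5 keratocyte markers in the table fell in both treatments, and their summed level was 41933 to 58331 CPM (counts scaled to library size) in serum-free culture, 12304 to 20817 with TGF-β1 and 1832 to 3959 with FBS. Leukocyte markers (10 of 10 in the table) summed to 5.40 to 8.12, 6.78 to 10.9 and 16.2 to 30.0 CPM in that order. CD68, the highest of them, averaged 2.35, 6.63 and 18.3 CPM. MRC1 averaged 0.127, 0.191 and 2.86 CPM, and the pan-leukocyte gene PTPRC 0.147, 0.0288 and 0.0972 CPM. Of the 5 leukocyte markers tested, 2 rose and 1 fell with FBS, against 39.5% and 40.5% of all genes. Corneal epithelial markers (7 of 8 in the table) summed to at most 1.24 CPM in any library, with KRT12 at 0 in all 3 conditions. The 5 vascular markers summed to 246 to 368, 52.1 to 113 and 13.8 to 19.0 CPM, mostly from KDR. CDH5 averaged 13.1, 6.09 and 1.93 CPM. PECAM1, VWF and TEK averaged under 1 CPM in each condition, and PECAM1 went the other way, at 0.0652, 0.283 and 0.679 CPM. The Schwann cell and melanocyte list (6 of 6) summed to 14.7 to 22.2, 3.56 to 8.15 and 2.42 to 4.57 CPM. The 3 corneal endothelial markers, mostly COL8A2, summed to 1080 to 1374, 2362 to 3229 and 276 to 414 CPM. These markers did not move together. COL8A2 averaged 1008, 2586 and 294 CPM, and TFAP2B 207, 99.7 and 35.0 CPM. SLC4A11 was lower than in serum-free culture with TGF-β1, at 0.823 CPM, and higher with FBS, at 6.93 CPM. Against serum-free medium, 1 of the 3 was called higher and 2 lower in each treatment. The part of these other cells in the results was not tested, and in bulk RNA fewer cells of a type and less RNA per cell cannot be told apart.

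Serum-free keratocytes held transcripts of every member found, and their order changed with treatment. Levels of different genes are compared here as FPKM, which is per length of gene, from the authors' deposited table (means of 8 libraries). In serum-free medium the alternative pathway protease gene CFB led at 99.6 FPKM (rank 535 of all 23428 genes), followed by the membrane regulator CD55 at 84.0 FPKM, and these neighbours overlapped. After a gap without overlap came C1S at 28.8, C3 at 20.5 and C1R at 18.3 FPKM, each overlapping the next, and then CFI at 1.97 and C7 at 1.64 FPKM, which also overlapped. With TGF-β1 the order was C1S at 80.2, CD55 at 38.5, C1R at 17.1, CFB at 9.64, C3 at 3.49, CFI at 1.11 and C7 at 0.444 FPKM. There the ranges of neighbouring genes were apart except for C1R and CFB, where C1R was the higher in 8 of 8 libraries. CFB thus stood at rank 5841 and C1S at rank 873 of all genes. With FBS the order was C1S at 28.8, CD55 at 21.1, CFB at 16.4, C1R at 10.96, C3 at 2.14, CFI at 0.403 and C7 at 0.0427 FPKM, and all neighbours but CFI and C7 overlapped. Within libraries, C1R was above C3 and C3 above CFI in 8 of 8, and CFB above C1R in 7 of 8. CD55 was above CFB in 5 of 8 and C1S above CD55 in 4 of 8.

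**Figure D1:**
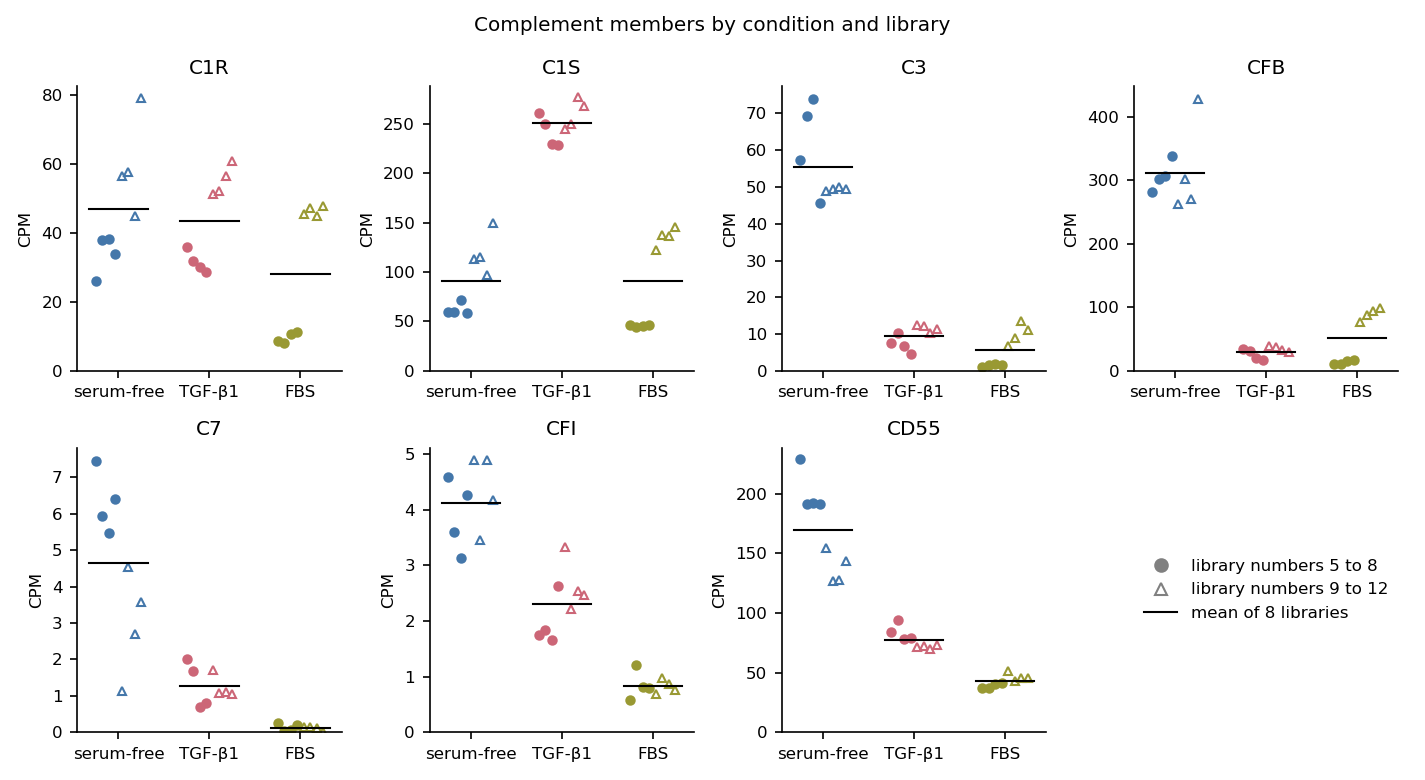
Level of each of the 7 members in every library, in CPM on a linear axis from 0, by condition; filled circles are library numbers 5 to 8, open triangles numbers 9 to 12, and the line is the mean of 8 libraries. C1S is highest with TGF-β1 in every library, and C3, CFB, CFI and CD55 lie lower in most or all treated libraries than in serum-free culture. The FBS libraries of C1R, C1S, C3 and CFB fall into separate groups by set, and those of CD55 do so by a narrow gap.

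The first comparison asks what TGF-β1 did to the complement transcripts of serum-free keratocytes. C1S rose 2.77-fold, CFB fell 10.3-fold, C3 5.87-fold, C7 3.67-fold, CD55 2.18-fold and CFI 1.79-fold, and C1R did not pass the test (edgeR quasi-likelihood test, p adjusted over all 13308 genes, called under 0.05). So 6 of 7 members were called, where 64.3% of all genes were. Of these 1 was higher, against 31.2% of all genes, and 5 were lower, against 33.1% of all genes. The libraries did not overlap for C1S, above, and for C3, CFB and CD55, below. That is 4 of 7, where 33.9% of all genes did not overlap, 17.3% above and 16.5% below. The median log2 fold change of the members was -1.13, beside -0.03 over all genes tested.

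With FBS, complement genes of several roles fell against serum-free medium. C7 fell 36.7-fold, C3 9.63-fold, CFB 6.05-fold, CFI 4.86-fold and CD55 3.97-fold, with no overlap of libraries in any of these. Called were 5 of 7 members, against 80.0% of all genes, and all 5 were lower, against 40.5%. The same 5 did not overlap, against 52.9% of all genes, of which 25.7% lay below and 27.2% above. None was called higher, against 39.5% of all genes (0 also at an unadjusted p under 0.05 in edgeR, and 0 with DESeq2). C1R and C1S did not pass. The median log2 fold change was -2.28, beside -0.04 over all genes. With the library number as a block, C1R was called lower too (6 of 7, against 42.2% of all genes in that fit).

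Between the treatments, which were compared directly, 4 of 7 members were higher with TGF-β1, namely C1S, C7, CFI and CD55, against 36.9% of all genes (73.3% in either direction). All 4 lay wholly above, against 22.4% of genes (46.2% on either side). None was called lower, against 36.4% (0 also at an unadjusted p under 0.05 in edgeR, and 0 with DESeq2). C1R, C3 and CFB did not pass in the pooled fit, and the block called 6 of 7 higher in place of 4, against 39.4% of all genes in that fit. The median was 0.86 on the log2 scale, beside 0.01 over all genes. All 3 comparisons share libraries, so their counts are not independent of each other. Scaling by total counts alone, without TMM, moved the median of all genes to -0.17, 0.21 and -0.39 in the order above, and the share of calls that were higher from 48.5% to 37.5%, from 49.4% to 58.3% and from 50.4% to 31.5%.

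**Figure D2:**
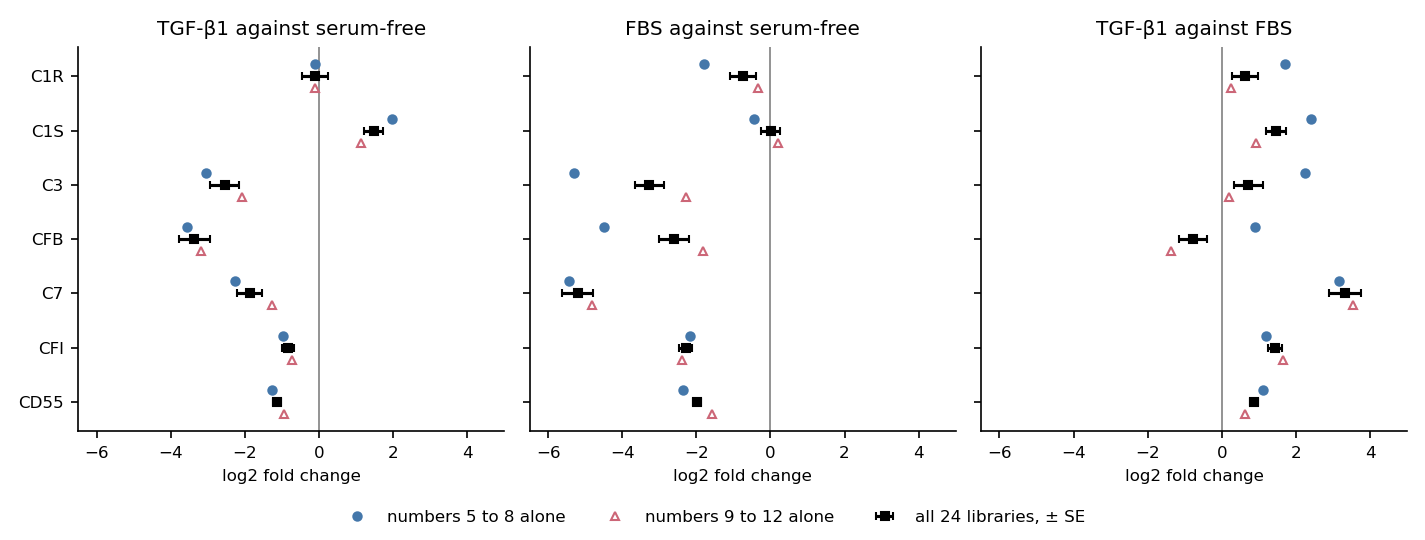
Log2 fold change of each member in the 3 comparisons, with black squares and bars for the estimate ± SE from all 24 libraries and coloured symbols for each set of library numbers fitted alone. C1S lies to the right of 0 in both sets with TGF-β1, and CFB lies on opposite sides of 0 in the sets when TGF-β1 is compared with FBS.

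C1R and C1S encode the partner proteases of the C1 complex, in which C1r activates C1s. C1R was 26.1, 41.6 and 79.0 CPM (lowest, median and highest of 8 libraries, as in all such triplets below) in serum-free culture, 28.5, 43.6 and 61.0 CPM with TGF-β1 and 8.15, 28.1 and 47.9 CPM with FBS. The serum-free and TGF-β1 ranges overlapped almost fully, and the log2 fold change was -0.11 (SE 0.35, edgeR adjusted p = 0.799). The FBS libraries fell into separate groups. Set 1 held 8.15 to 11.2 CPM, below every serum-free library, and set 2 held 45.0 to 47.9 CPM, within the serum-free range. The pooled change with FBS was -0.74 (SE 0.35, edgeR adjusted p = 0.0567), against -1.80 for set 1 alone (adjusted p = 6.76e-10) and -0.35 for set 2 alone (adjusted p = 0.0235). With the library number as a block it was -0.98 (adjusted p = 2.67e-04). Against FBS, C1R with TGF-β1 stood at 0.63 (adjusted p = 0.109), 1.70 in set 1 and 0.25 in set 2 (adjusted p = 0.106), and at 0.89 (adjusted p = 8.52e-04) with the block. C1R was higher in set 2 in the other conditions as well, with means of 59.5 against 34.1 CPM in serum-free culture and 55.2 against 31.6 CPM with TGF-β1.

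C1S, the protease that cuts C4 and C2, was the member that rose with TGF-β1. Its levels were 58.4, 84.2 and 149 CPM in serum-free culture, 229, 250 and 276 CPM with TGF-β1 and 44.2, 84.5 and 145 CPM with FBS. Every TGF-β1 library lay above every library of the other conditions, while the serum-free and FBS libraries overlapped. The rise over serum-free medium was 1.47 on the log2 scale (SE 0.26, edgeR adjusted p = 2.66e-05), 1.96 in set 1 and 1.13 in set 2. TGF-β1 libraries differed little between sets, with means of 242 and 259 CPM, whereas serum-free libraries averaged 62.2 CPM in set 1 and 119 CPM in set 2. The difference from FBS was also 1.47 (adjusted p = 1.86e-05), 2.40 in set 1 and 0.93 in set 2. FBS against serum-free medium gave a pooled change of 0.0014 (adjusted p = 0.996). That value joined a fall of 0.44 in set 1 (adjusted p = 2.81e-05) and a value of 0.20 in set 2 that did not pass (adjusted p = 0.108).

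The number of C1R reads per C1S read was taken within each library, so that library scaling plays no part. It was 0.524 ± 0.0640 (mean ± SD, n = 8) in serum-free culture, 0.172 ± 0.0448 with TGF-β1 and 0.278 ± 0.0740 with FBS. Both treated groups lay wholly below the serum-free libraries, which ran from 0.440 to 0.640. Ratios were compared 6 times, each by a two-sided exact permutation test, with p adjusted over the 6. For C1R to C1S the log2 differences from serum-free medium were -1.64 with TGF-β1 and -0.95 with FBS (both adjusted p = 1.86e-04 by exact permutation, from the smallest p that 8 against 8 can give, 1.55e-04). TGF-β1 and FBS differed by -0.69 (adjusted p = 0.00575, exact permutation) with overlap of the libraries, although within each set they were apart. So C1R transcripts were fewer per C1S transcript in both treatments, although the pooled change of C1R itself passed in neither.

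SERPING1 encodes the C1 inhibitor, which blocks C1r and C1s, and is not a member. It averaged 243 CPM in serum-free culture, 67.7 CPM with TGF-β1 and 38.3 CPM with FBS, a log2 change of -1.84 (edgeR adjusted p = 9.05e-07) and of -2.67 (adjusted p = 1.05e-09). The change of SERPING1 with FBS was -3.75 in set 1 and -2.10 in set 2. The number of C1S reads per SERPING1 read was 0.366 ± 0.106 in serum-free culture, 3.73 ± 0.340 with TGF-β1 and 2.51 ± 0.356 with FBS. No library of any condition overlapped those of another condition in this ratio of reads, and protein was not measured. The log2 differences were 3.40 with TGF-β1 and 2.82 with FBS against serum-free medium, and 0.58 between the treatments (each adjusted p = 1.86e-04, exact permutation). Within set 1 they were 3.74, 3.31 and 0.42, and within set 2 they were 3.06, 2.32 and 0.74, with no overlap in either set.

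**Figure D3:**
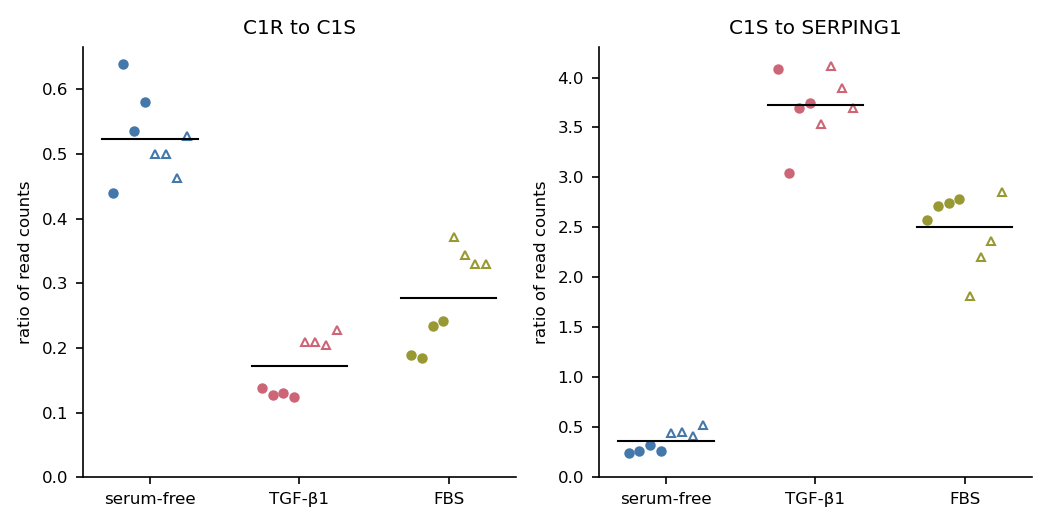
Ratio of read counts within each library, C1R to C1S on the left and C1S to SERPING1 on the right, on linear axes from 0; symbols mark the sets as in the plot of levels and lines are means of 8 libraries. The treated libraries lie below the serum-free range of 0.440 to 0.640 on the left and above the serum-free range of 0.242 to 0.527 on the right.

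C3 is the central component that all activation routes cut. It was 45.7, 49.7 and 73.8 CPM in serum-free culture, 4.60, 10.3 and 12.4 CPM with TGF-β1 and 0.936, 4.38 and 13.6 CPM with FBS. All treated libraries lay below all serum-free ones, and the treated groups overlapped. The fall with TGF-β1 was -2.55 on the log2 scale (SE 0.39, edgeR adjusted p = 2.45e-06), -3.05 in set 1 and -2.09 in set 2. With FBS it was -3.27 (adjusted p = 3.39e-08), -5.30 in set 1 and -2.28 in set 2. FBS libraries averaged 1.53 CPM in set 1 and 10.1 CPM in set 2, apart from each other. TGF-β1 against FBS gave 0.71 (adjusted p = 0.0988), 2.24 in set 1 (adjusted p = 1.95e-07), 0.19 in set 2 (adjusted p = 0.297) and 0.88 with the block (adjusted p = 0.0337). The row for C3 has a length of 2708 bases in the table and may hold only part of the gene, so the FPKM of C3 and its place in the order of genes are uncertain. Another row described there as C3 held 19, 16 and 4 counts in all per condition, against 8311, 1181 and 965 for the C3 row.

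CFB encodes factor B, the protease of the alternative pathway convertase. Its levels were 263, 302 and 428 CPM in serum-free culture, 17.3, 31.5 and 39.6 CPM with TGF-β1 and 10.3, 47.2 and 98.8 CPM with FBS. Every treated library lay far below the lowest serum-free one. FBS set 2 held 77.2 to 98.8 CPM, above all TGF-β1 libraries, while FBS set 1 held 10.3 to 17.1 CPM. TGF-β1 lowered CFB by a log2 change of -3.37 (SE 0.42, edgeR adjusted p = 1.00e-07), and the sets gave -3.58 and -3.19. FBS lowered it by -2.60 (adjusted p = 1.75e-06), with -4.48 in set 1 and -1.81 in set 2. Between the treatments the sets went opposite ways. TGF-β1 libraries were higher than FBS libraries by 0.90 in set 1 (adjusted p = 4.37e-04) and lower by a log2 value of -1.38 in set 2 (adjusted p = 6.45e-07), and the pooled value of -0.78 did not pass (adjusted p = 0.0743). It passed, at -1.17 (adjusted p = 0.00893), when libraries were scaled by total counts alone, and also on leaving out any 1 of the FBS replicates 1 to 4 (-0.94 to -0.91). CFB shares 521 bases with NELFE on the other strand, a gene chosen here after its values were seen, and whether counting used strand was not stated. NELFE moved the other way from CFB, from 30.9 ± 2.92 CPM to 41.6 ± 2.01 with TGF-β1 and 62.2 ± 9.73 with FBS.

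C7 joins the membrane attack complex and anchors it to the target membrane. It was scarce at 1.13, 5.01 and 7.44 CPM in serum-free culture, 0.689, 1.08 and 2.02 CPM with TGF-β1 and 0, 0.129 and 0.246 CPM with FBS. The serum-free and TGF-β1 ranges overlapped through 1 serum-free library at 1.13 CPM, and every FBS library lay below all others. The change with TGF-β1 was -1.88 (SE 0.33, edgeR adjusted p = 1.96e-05), -2.27 in set 1 and -1.27 in set 2. FBS gave -5.20 (adjusted p = 1.22e-11) on 21 counts over its 8 libraries, so the size of that fold is imprecise. Against FBS, C7 with TGF-β1 was higher by 3.32 (adjusted p = 1.41e-07), and the sets gave 3.17 and 3.53. Of the other late components C6, C8A, C8B and C9 had few counts or none. C9 had 29, 6 and 13 counts per condition. C6 had 5 counts in serum-free culture and 0 in the treatments, and C8A and C8B had 0 in all 24 libraries, which allows up to 0.00672 CPM over the series (3 counts, counting error only).

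CFI encodes factor I, the serum protease that cuts C3b and C4b. It was 3.13, 4.22 and 4.90 CPM in serum-free culture, 1.67, 2.34 and 3.33 CPM with TGF-β1 and 0.591, 0.815 and 1.21 CPM with FBS. The first pair of groups overlapped slightly, and FBS lay below both. The changes were -0.84 with TGF-β1 (SE 0.17, edgeR adjusted p = 1.01e-04) and -2.28 with FBS (adjusted p = 6.37e-12), and TGF-β1 stood 1.44 above FBS (adjusted p = 6.75e-08). Within the sets the FBS change was -2.17 and -2.38, and no comparison of CFI had a set-by-treatment term past the threshold.

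CD55, also called decay-accelerating factor, is a membrane protein that dismantles the convertases on the cell that carries it. It was 127, 173 and 229 CPM in serum-free culture, 69.5, 75.9 and 93.9 CPM with TGF-β1 and 36.9, 42.2 and 51.3 CPM with FBS. None of the 3 groups overlapped, so every library fell in the order serum-free, TGF-β1, FBS. TGF-β1 lowered CD55 by a log2 change of -1.13 (SE 0.11, edgeR adjusted p = 1.16e-09) and FBS by -1.99 (adjusted p = 6.77e-15), and TGF-β1 stood 0.86 above FBS (adjusted p = 8.18e-08). Serum-free libraries averaged 201 CPM in set 1 and 138 CPM in set 2. The fall with FBS was -2.36 in set 1 and -1.57 in set 2.

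The treatment effects of several members depended on the set of library numbers. A set-by-treatment term passed the threshold for 2 members with TGF-β1 against serum-free medium (C1S and C3), where 10.3% of all genes passed. It passed for 5 members with FBS against serum-free medium and for 5 between the treatments (C1R, C1S, C3, CFB and CD55 in both), where 22.4% and 23.9% of all genes passed. C7 and CFI, the scarcest members, had no such term past the threshold, and for C7 the estimate was imprecise. Its set difference with TGF-β1 against serum-free medium was 0.996 (SE 0.541), beside 0.960 (SE 0.266) for C3. In set 1 alone all 7 members were called lower with FBS, against 40.3% of all genes in that fit, and all 7 were called higher with TGF-β1 than with FBS, against 37.5%. In set 2 alone 6 were lower with FBS, against 40.0%. There 4 were higher and 1 lower with TGF-β1 than with FBS, against 34.9% and 35.8%.

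A wider list of 47 complement genes places the members in their pathway, and 38 of them are in the table. Besides the members that leaves 31 genes, of which 13 had enough counts to be tested, so the counts below describe those 13 only. Among them CD46, CR2 and CD93 were scarce outside TGF-β1 culture, and C5 was scarce outside serum-free culture. The filter works by condition and can admit such genes through the condition where they are high. The direction of their calls, here and below, was therefore in part fixed by the filter, and the counts and medians include them. With TGF-β1, 7 of the 13 fell and 4 rose, against 33.1% and 31.2% of all genes (median log2 change -1.52, beside -0.03 over all genes). With FBS 8 fell and 1 rose, against 40.5% and 39.5% (median -2.12, beside -0.04). Between the treatments 9 were called higher with TGF-β1 and 1 lower, against 36.9% and 36.4% (median 1.56, beside 0.01). There the libraries lay wholly above in 7 of the 13 and wholly below in 1, against 22.4% and 23.8% of all genes. A set-by-treatment term passed for 2, 6 and 8 of the 13 in the order of these comparisons, against 10.3%, 22.4% and 23.9% of all genes.

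Upstream of C3, C4A encodes the C4 protein that C1s cuts, MASP1 a protease of the lectin pathway and COLEC12 a membrane collectin. C4A fell from 143 to 49.99 CPM with TGF-β1 and 29.7 CPM with FBS, log2 changes of -1.52 (edgeR adjusted p = 5.16e-04) and -2.27. Its difference between the treatments, 0.75, missed the threshold (adjusted p = 0.0550) and passed with the block (0.93, adjusted p = 3.36e-05). MASP1 went from 128 to 34.4 and 3.32 CPM (-1.90 and -5.28, the latter -6.81 in set 1 and -4.26 in set 2). COLEC12 went from 571 to 56.0 and 28.9 CPM (-3.35 and -4.30). All 6 of these pooled changes against serum-free medium passed the test. So C1S was the 1 tested gene of the initiation group that rose with TGF-β1. C2, the other substrate of C1s, did not pass the filter of the pooled fit, with 117, 22 and 19 counts per condition. In set 2 alone, where it was tested, C2 fell with both treatments (-1.73, adjusted p = 0.0197, and -2.41, adjusted p = 0.00185). Its set 2 means were 0.953 CPM in serum-free culture, 0.294 CPM with TGF-β1 and 0.178 CPM with FBS. C2 thus entered that fit through its serum-free libraries, so the direction of these calls was fixed in advance. C5, which starts the terminal steps, fell from 1.22 to 0.179 and 0.0281 CPM (-2.71 and -5.13). CFP, or properdin, which stabilizes the alternative convertase, stayed near 1 CPM, with changes of -0.34 and -0.13 that did not pass (adjusted p = 0.452 and 0.758).

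Among the other regulators, CD59, which blocks assembly of the membrane attack complex, fell with CD55, from 59.8 to 15.8 and 5.35 CPM (-1.92 and -3.48). Its change with FBS was -3.90 in set 1 and -3.07 in set 2. CD46, a membrane cofactor for factor I, was scarce and rose with TGF-β1 from 0.245 to 1.71 CPM (2.76, adjusted p = 9.23e-06). It stood at 0.0532 CPM with FBS (-2.12, adjusted p = 0.00418), a call lost in set 1 alone (-1.74, adjusted p = 0.0547). CLU, or clusterin, fell from 1238 to 316 CPM with TGF-β1 (-1.97, adjusted p = 3.01e-05). Serum-free libraries averaged 535 CPM of CLU in set 1 and 1941 CPM in set 2. With FBS it averaged 1282 CPM, a pooled change of 0.05 (adjusted p = 0.897) that joined 0.74 in set 1 and -0.21 in set 2, both past the threshold. C4BPA, found by its gene number, was under 1 CPM on average in each condition and did not pass in any comparison. The receptor-like CD93 rose from 0.166 to 4.87 and 0.541 CPM (4.85 and 1.72). The call with FBS was lost in set 2 alone (0.84, edgeR adjusted p = 0.269) and with FPKM at a pseudocount of 1 (0.07, limma adjusted p = 0.132).

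**Figure D4:**
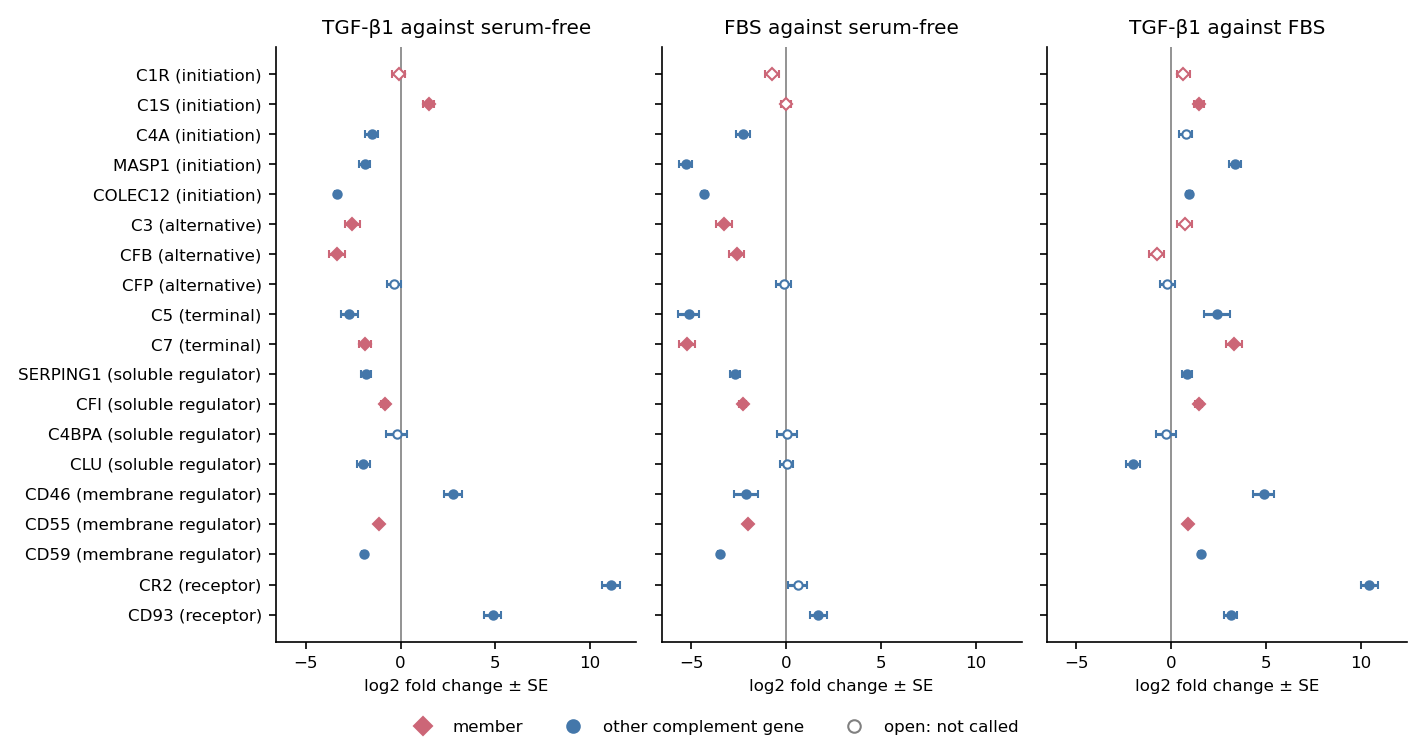
Log2 fold change ± SE of tested complement genes in the 3 comparisons on a common axis, ordered by role; red diamonds are members, blue circles other genes of the list, and open symbols did not pass the test. Most initiation, alternative and terminal genes lie left of 0 against serum-free medium, with C1S, CD46, CR2 and CD93 right of 0 with TGF-β1.

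Coordinates are those of the authors' deposited table, with no genome build named in the sources used here. C1S (chromosome 8, 33037552 to 33047196, plus strand) and C1R (33061896 to 33069885, minus strand) are 14.7 kb apart on opposite strands. CFB (chromosome 12, 20779026 to 20785174, plus strand) begins 0.816 kb after C2 and ends 34.7 kb before C4A. C7 (chromosome 11, 61796664 to 61861932, plus strand) lies 147 kb from C6. CFI is on chromosome 15 (39628453 to 39670902, plus strand), and C3 is on a scaffold not placed on a chromosome (2587 to 20125, plus strand). CD55 (chromosome 16, 65112668 to 65141148, minus strand) sits in a row of complement regulators that also holds CD46, CR1, CR2 and C4BPA, all on the minus strand.

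Of 6 tested neighbours of CD55 within 250 kb, 3 were higher and 2 lower with TGF-β1. CR2, 73.9 kb away, went from 0.571 to 1245 CPM with TGF-β1 (11.09 on the log2 scale, edgeR adjusted p = 1.82e-16) and was at 0.864 CPM with FBS. CD46 rose as given above, and CR1, 5.28 kb from CR2, had 25, 134 and 9 counts per condition and did not pass the filter of the pooled fit. In set 1 alone, where it was tested, CR1 was higher with TGF-β1 than in serum-free culture (3.07, adjusted p = 4.35e-05) and than with FBS (3.91, adjusted p = 3.58e-06). Its set 1 means were 0.158 CPM in serum-free culture, 1.39 CPM with TGF-β1 and 0.0890 CPM with FBS. CR1 thus entered that fit through its TGF-β1 libraries, so the direction of these calls was fixed in advance. CD46, CR1 and CR2 share repeated domains, and how reads that fit several copies were counted was not stated. Around each member, in a window of 250 kb to either side chosen after values had been seen, the tested neighbours were few except near CFB, C1R and C1S. Of 30 tested neighbours of CFB 14 were lower and 6 higher with TGF-β1, and 20 were lower and 6 higher with FBS. Of 20 tested neighbours of C1S, C1R among them, 7 were higher and 3 lower with TGF-β1, and 7 were higher and 8 lower with FBS. Over all genes the shares were 31.2% higher and 33.1% lower with TGF-β1 and 39.5% and 40.5% with FBS.

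For each member the genes of most similar pattern were taken as those with the smallest root mean square difference of centred log2 CPM over the 24 libraries, among 9759 genes. CD55 had the closest, LMBRD1 and PPM1K, each at 0.18. CFI was nearest to DCLK2 (0.27) and ADCY6 (0.29), and C1R to FIS1 (0.30) and MYPOP (0.33). For C1S, CSTB was at 0.34, and C3 was nearest to APOD (0.32) and EPYC (0.43). The pairs of CFB (IL16 at 0.50 and GAS1 at 0.57) and C7 (MYLIP at 0.56 and FAM65B at 0.59) were less close. No gene of the wider complement list was among these pairs, from which the members themselves were left out.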

How the data were processed

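RNA-seq libraries (24) were analysed from the counts per gene that the authors deposited, which are whole numbers and not normalized. The FPKM values that the authors deposited divide these counts by gene length and by a scaled library size. Aligner, counter and genome build: not given in the sources used here. All members, lists and tests were chosen with earlier results of these data known.

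Counts were tested in R 4.3.3 with edgeR 4.0.16 (filterByExpr by condition, TMM, all 24 libraries, quasi-likelihood F-test), Benjamini-Hochberg over 13308 genes, called at an adjusted p under 0.05. CPM uses TMM sizes. The set-by-treatment term came from the same kind of fit. Count ratios used a pseudocount of 0.5. FPKM was tested as an alternative with limma 3.58.1 (log2 of FPKM plus 0.1 or 1, on that scale), and counts with DESeq2 1.42.0. In simulated counts for TGF-β1 against serum-free (13189 genes), 48%, 79.2%, 100% and 100% of genes changed 1.5-, 2-, 4- and 8-fold were recovered. There 50 genes were changed at each fold, far fewer than were called in the data, and no set differences were simulated. Changed genes that did not pass the filter were left out of these shares.

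Residuals of same-numbered libraries correlated at 0.177 to 0.362 (TGF-β1 and serum-free), 0.115 to 0.429 (FBS and serum-free) and 0.103 to 0.332 (TGF-β1 and FBS). These values passed a rule of 0.1, so the library number was used as a block in an alternative fit. The main fits had no block. Differences between the sets were left in the residuals, so these correlations cannot show that the numbers pair the samples. No libraries were duplicates (lowest chi-square per gene 2.85, FBS replicates 1 and 2). Named genes are the members, the complement list (2 found by gene number in RefSeq names of assembly mOryCun1.1), cell type markers and the 2 genes nearest each member with at least 5 CPM in their highest condition. Of the genes this rule names, 2 are not reported here. Sequences were not used here.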

Additional observations from a re-analysis of the deposited data

Results flagged for a closer look

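CFB in serum-free replicate 8 stood at 428 CPM, above the next library at 339 CPM, and that gap was 0.542 of the range of the group, past Dixon's critical value. It was the 1 flag in 21 such tests, where chance flags about 1 in 20.

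The following treatment effects differed between the sets of library numbers by a set-by-treatment term in edgeR, given as set 2 minus set 1 on the log2 scale. For C1R the difference was 1.45 with FBS against serum-free (adjusted p = 5.46e-06) and -1.45 with TGF-β1 against FBS (5.95e-06). C1S gave -0.83 with TGF-β1 against serum-free (1.09e-04), 0.64 with FBS against serum-free (0.00123) and -1.47 between the treatments (1.52e-08). C3 gave 0.96 (0.0194), 3.01 (2.27e-08) and -2.05 (2.84e-05) in that order. CFB gave 2.67 with FBS against serum-free (2.42e-08) and -2.28 between the treatments (8.49e-07), the latter across 0. CD55 gave 0.79 (1.45e-05) and -0.48 (0.00348) in those comparisons. Gene length correlated with a library's departure from its condition mean at 0.145 to 0.251 in set 1 and -0.390 to 0.0646 in set 2 of serum-free libraries, and at 0.284 to 0.433 and -0.528 to 0.0369 in those of FBS. In TGF-β1 libraries the sets overlapped (-0.0729 to 0.242 and -0.256 to 0.0437). The part of length in these differences was not tested.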

How the results depend on the processing

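Under 38 alternatives (scaling, filters, block, set, tool, FPKM, leaving out libraries, libraries summed in pairs) the 6 members called with TGF-β1, the 5 called with FBS and the 4 called between the treatments kept call and direction, and the count ratios did under those run for them. The replicate block changed 3 calls of members, those of C1R (-0.98 with FBS, 0.89 between the treatments) and C3 (0.88 between the treatments), and in the list that of C4A between the treatments. Set as a covariate and FPKM with limma changed these calls too. C1R with FBS kept its result in 25 of 38 alternatives, and between the treatments C1R did in 31 and C3 in 30. Between the treatments, members called higher went from 4 to 7 in set 1 alone, and members called lower from 0 to 1 with total library size only and in set 2 alone (0 to 1 on leaving out each library, 1 without any of FBS replicates 1 to 4, where it was CFB). In the complement list the genes lower between the treatments went from 1 to 2 under both settings (1 to 2 on leaving out each library). Those higher with FBS went from 1 to 2 with set as a covariate and in set 1 alone, and to 0 in set 2 alone, with only the libraries compared, and with FPKM at pseudocount 1.

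Values near 0 changed sign. C1S with FBS was -0.0030 with RLE factors, -0.077 with the replicate block, -0.083 with set as a covariate, -0.44 in set 1, -0.0026 with DESeq2, -0.12 with FPKM at pseudocount 0.1 with or without the filter, -0.11 at pseudocount 1, -0.21 without FBS replicates 5 and 6, and -0.12 to 0.14 on leaving out each library. CFP with FBS was 0.12 with total size, 0.16 in set 2 and -0.27 to 0.11 on leaving out each library, and between the treatments 0.084 in set 1 and 0.14 without FBS replicates 5 and 6. C4BPA with FBS was -0.063 with set as a covariate, -0.10 without FBS replicates 5 and 6 and -0.17 to 0.39 on leaving out each library. C4BPA could not be fitted in set 1 alone, where it did not pass the filter. CLU with FBS was -0.21 in set 2, -0.14 without FBS replicates 5 and 6 and -0.074 to 0.23 on leaving out each library. CFB between the treatments was 0.90 in set 1. With TGF-β1, C1R ran from -0.20 to 0.041 and C4BPA from -0.42 to 0.11 on leaving out each library. The cause was not tested. Depth limits C7 with FBS, C5, C6, C2, CR1 and CD46.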

Other observations

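Other complement genes did not pass the filter of the pooled fit. COLEC10, a soluble collectin, had 121 counts over the 8 serum-free libraries, 1 with TGF-β1 and 0 with FBS. In set 1 alone, where it was tested in edgeR, it was called lower with TGF-β1 (adjusted p = 5.82e-05) and with FBS (adjusted p = 1.31e-05). COLEC10 entered that fit only through its serum-free libraries (set 1 mean 0.914 CPM), so the direction of these calls was fixed in advance. ITGB2, the beta chain of the leukocyte complement receptors, had 81, 9 and 7 counts in the same order. The row named C1QC had 5, 0 and 3 counts, and its description in the table names another C1q chain, so its identity is uncertain.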
